A study of Homo sapiens with 8 samples.

Results

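NF-kB is a family of dimeric transcription factors that carries signals from cytokine and innate immune receptors to the nucleus. The genes described here are 4 of its subunits and 6 genes that NF-kB is known to induce: NFKB1, NFKB2, RELA, RELB, NFKBIA, TNFAIP3, BIRC3, TRAF1, ICAM1 and IRAK2. They were chosen by name, and all 10 were found among the 60617 genes of the count table and were tested. RNA was sequenced from MCF-10A, a cell line of human breast epithelium, grown with epidermal growth factor, insulin, hydrocortisone, cholera toxin and horse serum. The cells were of 2 lines, named Empty and NeuT, and the labels do not say what either carries or whether a line is 1 clone. Each line was left untreated or received 1 µM JG-98, an inhibitor of Hsp70 chaperones, for 12 h, with 2 libraries in each of the 4 groups. The stated subject of the series is the sensitivity of transformed cells to JG-98.

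In resting cells NF-kB dimers are held in the cytoplasm by IkB proteins. Ligands of the tumour necrosis factor and interleukin-1 receptor families activate the IkB kinase complex, which marks IkB for degradation and frees RELA-containing dimers, while a slower branch processes the NFKB2 precursor and frees dimers with RELB. Several target genes feed back: NFKBIA and TNFAIP3 shut the signal down, and NFKB2, RELB and BIRC3 reset it. RNA levels of these genes do not measure the location or activity of the proteins.

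Total counts per library ran from 55050996 to 56861971, apart from Empty JG-98 replicate 1 with 37341458. Levels are given as CPM (counts scaled by TMM library sizes), or as RPKM (CPM per kilobase of exon) where different genes are compared. Changes are log2 fold changes with their standard errors (SE), and called means that edgeR's quasi-likelihood test gave an adjusted p under 0.05 over 17693 tested genes. No label says that the replicates came from separate cultures, so p-values measure only the spread between these libraries. All 9 epithelial markers averaged at least 10 counts, with summed levels of 18450 to 20680 CPM. Of 8 leukocyte markers 2 or 3 did so in each group, and their sum was 5.43 to 7.79 CPM in Empty and 11.3 to 12.9 CPM in NeuT, most of it CD14 at 191 to 662 counts, while PTPRC, CD3E and MS4A1 had 0 to 4. The 6 endothelial markers summed to 9.59 to 17.6 CPM, with PECAM1 the highest. The 7 fibroblast markers summed to 8.54 to 9.87 CPM in Empty and 68.3 to 82.9 CPM in NeuT. DCN moved with the line, at 124 to 204 counts in Empty and 3372 to 4189 in NeuT, while PDGFRA had at most 2 counts in any library and LUM at most 3. The part of other cell types in the line differences below was not tested.

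NF-kB binds a 10-base DNA sequence known as the NF-kB consensus. RefSeq promoter sequences (GRCh38.p14) were found for 9 of the 10 genes, and the 200 bases before each start were searched on both strands. At least 1 match stood before a start of 5 of them (NFKB1, NFKB2, NFKBIA, TNFAIP3 and BIRC3), against 5.13% of the 27305 genes in the table. By window the figures were 6 of 15, against 4.21% of all 35116 windows. The windows with a match are shown because these 5 genes include the feedback inhibitors whose levels are described next. Each reads 5′ to 3′ on the strand of the gene, ends at the base before the start, and has the matched letters in capitals.
NFKB1, chr4:102501159-102501358, plus strand: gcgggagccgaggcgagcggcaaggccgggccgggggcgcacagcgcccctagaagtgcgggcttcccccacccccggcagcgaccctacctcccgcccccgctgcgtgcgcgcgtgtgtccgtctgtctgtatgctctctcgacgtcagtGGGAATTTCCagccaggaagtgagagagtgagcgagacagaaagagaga
NFKB2, chr10:102394378-102394577, plus strand: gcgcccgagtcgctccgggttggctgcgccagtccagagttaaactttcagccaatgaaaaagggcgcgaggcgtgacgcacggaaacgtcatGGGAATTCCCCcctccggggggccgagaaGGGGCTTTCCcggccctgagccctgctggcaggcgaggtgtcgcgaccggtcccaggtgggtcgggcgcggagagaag
NFKB2, chr10:102395505-102395704, plus strand: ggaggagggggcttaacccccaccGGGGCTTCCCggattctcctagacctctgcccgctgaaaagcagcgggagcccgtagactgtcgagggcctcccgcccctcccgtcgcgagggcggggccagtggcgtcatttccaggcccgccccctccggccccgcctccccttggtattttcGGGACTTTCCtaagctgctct
NFKBIA, chr14:35404750-35404949, minus strand: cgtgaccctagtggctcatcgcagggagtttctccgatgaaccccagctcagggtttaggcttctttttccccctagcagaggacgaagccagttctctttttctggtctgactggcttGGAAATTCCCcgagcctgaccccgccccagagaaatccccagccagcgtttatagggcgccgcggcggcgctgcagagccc
TNFAIP3, chr6:137867059-137867258, plus strand: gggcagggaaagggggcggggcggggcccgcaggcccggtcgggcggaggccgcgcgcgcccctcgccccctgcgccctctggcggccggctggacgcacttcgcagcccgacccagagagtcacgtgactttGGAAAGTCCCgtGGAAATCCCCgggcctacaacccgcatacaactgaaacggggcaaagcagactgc
BIRC3, chr11:102317284-102317483, plus strand: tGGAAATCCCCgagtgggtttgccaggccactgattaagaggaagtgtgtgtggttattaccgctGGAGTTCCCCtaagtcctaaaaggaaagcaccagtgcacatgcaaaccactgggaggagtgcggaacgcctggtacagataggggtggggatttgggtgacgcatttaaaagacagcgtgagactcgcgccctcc
The TNFAIP3 window held its matches 67 to 58 and 55 to 46 bases before the start, both read on the opposite strand. NFKBIA had 1 at 81 to 72 bases, on the opposite strand, and NFKB1 had 1 at 49 to 40 bases. In the first NFKB2 window shown 3 of the 4 matches overlap: 2 are the same 10 bases read on either strand, and the other is shifted by 1 base. No match was found in the windows searched for RELA, TRAF1, ICAM1 and IRAK2, which says only that these letters are not in those windows. A match is a description of sequence and not of binding.

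Most of the 10 genes were higher in NeuT than in Empty cells before any treatment. Of the 10, 9 were called, 8 as higher and 1 as lower, where 42.0% of all tested genes were called, 21.2% as higher and 20.8% as lower. Of the calls over all genes 50.5% were higher in NeuT, against 40.7% with total counts in place of TMM scaling. The median log2 difference of the 10 genes was 1.19, against -0.0156 over all tested genes. The range ran from -0.18 for NFKB1 to 3.44 for TNFAIP3. In bulk RNA a change in the number of cells expressing a gene and a change in the RNA per cell cannot be told apart.

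**Figure D1:**
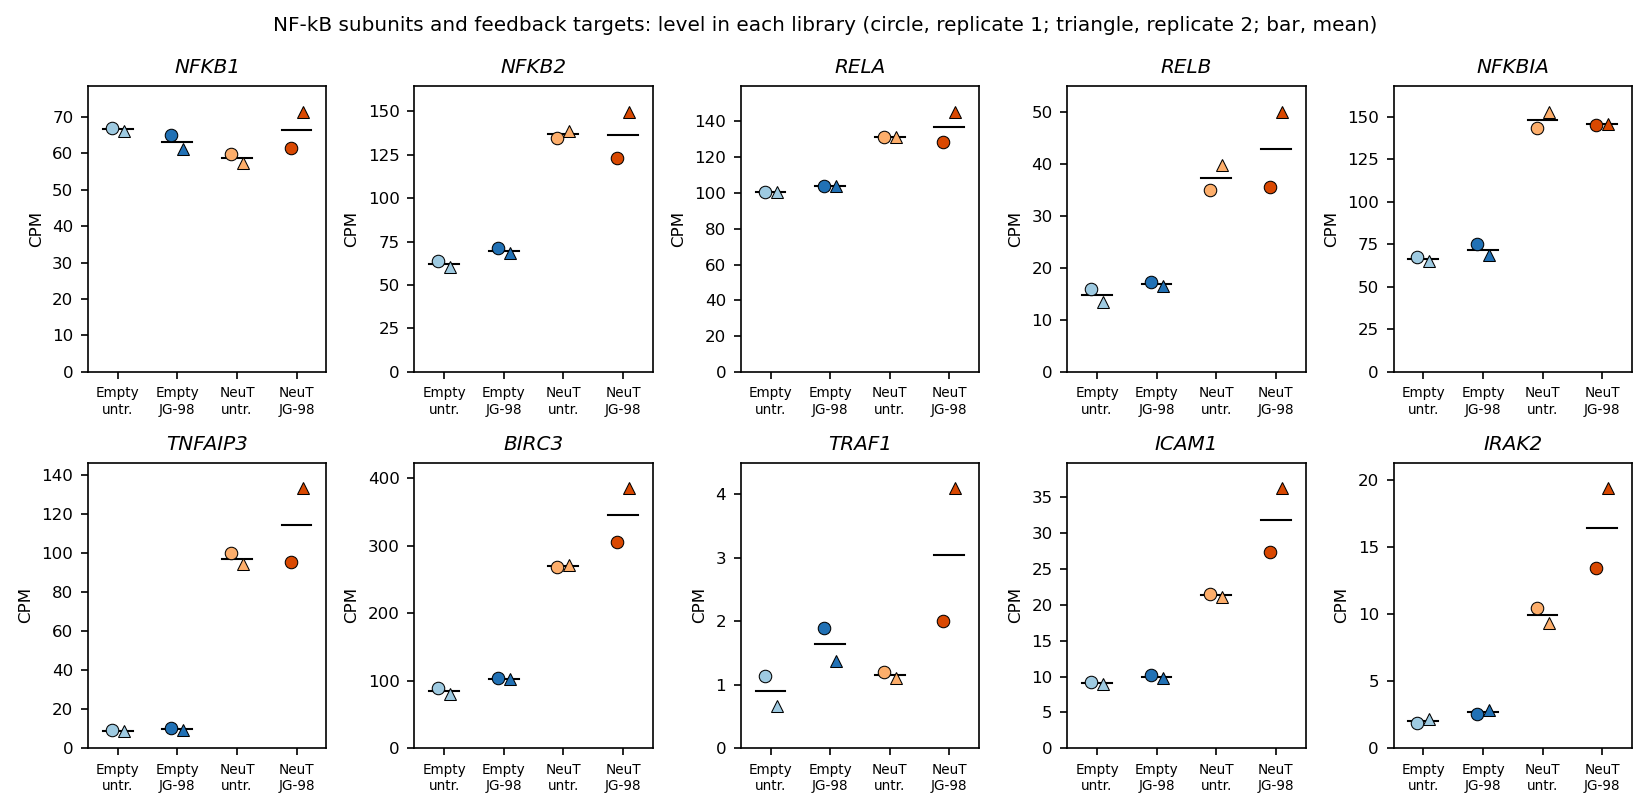
Level of each gene in CPM (vertical axis, starting at 0) in every library of the 4 groups; circles are replicate 1, triangles replicate 2 and bars the mean of both. TNFAIP3 stands near 9 CPM in untreated Empty and at 94.4 and 100.0 CPM in untreated NeuT, while NFKB1 stays between 57.5 and 71.3 CPM in all 8 libraries.

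Among the subunits, the genes of the slower branch differed most between lines. NFKB2 (ENSG00000077150, chromosome 10, 102394110 to 102402524, plus strand), which encodes the p100 precursor of p52, was at 63.7 and 60.4 CPM in untreated Empty and 134.5 and 139.0 CPM in untreated NeuT. Its log2 difference was 1.14 (SE 0.076; edgeR adjusted p 4.2e-09), and the NeuT libraries lay far above the Empty ones. RELB (ENSG00000104856, chromosome 19, 45001449 to 45038198), the partner of p52, was at 16.0 and 13.5 CPM in Empty and 34.9 and 39.7 CPM in NeuT (log2 difference 1.34, SE 0.15; edgeR adjusted p 6.3e-05). RELA (ENSG00000173039, chromosome 11, 65653597 to 65663090, minus strand), the p65 subunit with the transactivation domain, rose less, from 100.5 and 100.4 CPM to 131.2 and 131.2 CPM (log2 difference 0.39, SE 0.061; edgeR adjusted p 6.8e-05). The replicates of RELA were nearly equal within each untreated group.

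NFKB1 (ENSG00000109320, chromosome 4, 102501331 to 102617302), the gene of p105 and p50, was the exception. It was at 67.0 and 66.2 CPM in untreated Empty and at 59.8 and 57.5 CPM in untreated NeuT, so the groups did not overlap but lay close. The log2 difference of -0.18 (SE 0.071) passed narrowly, at an edgeR adjusted p of 0.0489. That call was lost with RLE factors, DESeq2, limma-voom, a minimum of 10 counts in every library, edgeR without robust estimation and the removal of any 1 of the 4 libraries. Over all alternatives the adjusted p lay between 0.0027 and 0.314. REL, the gene of the remaining Rel protein, was lower in NeuT by 0.48 on the log2 scale (log2 difference -0.48, SE 0.15; edgeR adjusted p 0.0150), and 43.3% of its exonic bases overlap another gene.

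The balance of subunit RNAs therefore differed between lines when levels were taken per length. The ratio of NFKB2 to NFKB1 in RPKM was 1.28 and 1.23 in untreated Empty and 3.03 and 3.26 in untreated NeuT. RELB stood at 0.288 and 0.243 of the RELA level in Empty and at 0.482 and 0.548 in NeuT. By contrast the NFKB1 level was 0.572 and 0.566 of that of RELA in Empty and 0.391 and 0.376 in NeuT. None of these ratios overlapped between the untreated lines, and with 2 libraries a group they are given as descriptions without a test.

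The feedback inhibitors were higher in NeuT. TNFAIP3 (ENSG00000118503, chromosome 6, 137867214 to 137883312) encodes A20, a ubiquitin-editing enzyme that ends signalling upstream of the IkB kinases. It had 9.25 and 8.71 CPM in untreated Empty and 100.0 and 94.4 CPM in untreated NeuT. Its difference of 3.44 on the log2 scale (SE 0.16; edgeR adjusted p 4.8e-07) is a 10.8-fold higher level and exceeded in size that of 99.2% of all tested genes. NFKBIA (ENSG00000100906, chromosome 14, 35401511 to 35404749), the gene of IkB alpha, was at 67.5 and 65.2 CPM in Empty and 143.1 and 152.7 CPM in NeuT (log2 difference 1.16, SE 0.062; edgeR adjusted p 1.6e-10). Relative to RELA, its cargo, the NFKBIA level per length was 1.55 and 1.49 in untreated Empty and 2.51 and 2.68 in untreated NeuT.

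Of the genes acting at receptor complexes, BIRC3 and IRAK2 were higher in NeuT and TRAF1 was not called. BIRC3 (ENSG00000023445, chromosome 11, 102317450 to 102339403), the ubiquitin ligase cIAP2, was at 89.0 and 80.6 CPM in untreated Empty and 269.1 and 272.1 CPM in untreated NeuT (log2 difference 1.67, SE 0.090; edgeR adjusted p 7.9e-09). Its paralogue BIRC2, the ligase cIAP1, was not called between the untreated lines (log2 difference 0.082). The BIRC3 level per length was 0.916 and 0.800 of that of BIRC2 in Empty and 2.48 and 2.69 in NeuT. IRAK2 (ENSG00000134070, chromosome 3, 10164919 to 10243745), a kinase-like adaptor of interleukin-1 and Toll-like receptor signalling, went from 1.89 and 2.17 CPM in Empty to 10.45 and 9.37 CPM in NeuT (log2 difference 2.29, SE 0.17; edgeR adjusted p 3.3e-08). TRAF1 (ENSG00000056558, chromosome 9, 120902393 to 120929173, minus strand), an adaptor of tumour necrosis factor receptors, was low in both lines, at 1.15 and 0.666 CPM in untreated Empty and 1.21 and 1.11 CPM in untreated NeuT. These values overlap, rest on 38 to 66 counts per library, and were not called (log2 difference 0.36, SE 0.36; edgeR adjusted p 0.464). The TRAF1 difference was 0.80 without Empty untreated replicate 1 and 0.018 without Empty untreated replicate 2, and was called in neither case.

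ICAM1 (ENSG00000090339, chromosome 19, 10271093 to 10286615), the cell-surface ligand of leukocyte integrins, was the member that acts in adhesion. Its level was 9.23 and 9.01 CPM in untreated Empty and 21.5 and 21.2 CPM in untreated NeuT (log2 difference 1.22, SE 0.11; edgeR adjusted p 2.0e-07). Exons of the genes ICAM4-AS1 and LIMASI overlap 25.4% of its exonic bases, and since no source used here says that strand was used in counting, reads there cannot be assigned with certainty. For RELA and TNFAIP3 that share was 1.56% and 1.89%, and for the other members it was 0.

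Ordered by RPKM, the level in untreated Empty fell from NFKBIA (27.95 ± 0.68, SD, n = 2) through RELA (18.4 ± 0.011), NFKB2 (13.2 ± 0.50), BIRC3 (11.3 ± 0.78), NFKB1 (10.5 ± 0.093), RELB (4.88 ± 0.59), ICAM1 (2.65 ± 0.045), TNFAIP3 (1.79 ± 0.075) and IRAK2 (0.591 ± 0.060) to TRAF1 (0.202 ± 0.076). In untreated NeuT the order was NFKBIA (62.3 ± 2.9), BIRC3 (36.0 ± 0.28), NFKB2 (28.5 and 29.5), RELA (24.0 ± 0.0044), TNFAIP3 (19.3 ± 0.78), RELB (12.4 ± 1.1), NFKB1 (9.22 ± 0.26), ICAM1 (6.18 ± 0.065), IRAK2 (2.89 ± 0.22) and TRAF1 (0.259 ± 0.015). In both untreated groups the libraries of neighbours in the order did not overlap. Under JG-98 the order within each line was the same, and in NeuT the libraries of NFKB2 and RELA, of RELA and TNFAIP3, and of NFKB1 and ICAM1 overlapped. NFKBIA stood above 90.1% of tested genes in untreated Empty and 95.8% in untreated NeuT, while TNFAIP3 moved from above 45.3% to above 85.8%.

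Across all 8 libraries the 3 other genes whose log2 CPM was most like that of NFKBIA were SOCS2, IFI6 and SRPX, with a Pearson r of 0.999, 0.999 and 0.998. The libraries fall into 2 lines, so such values are common. Of 13010 genes compared, 1290 had an r above 0.95.

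The same genes were set against each other between the lines under JG-98. Here 9 of the 10 were called, all as higher in NeuT, where 41.7% of all tested genes were called, 21.7% as higher and 20.0% as lower. With total counts in place of TMM scaling, 41.0% of the calls over all genes were higher in NeuT, against 52.0% under TMM. The median of the 10 genes was 1.18, against -0.00111 over all tested genes. Of the 10, 8 were called in both line comparisons. The share of all tested genes called in both is not given here, so this count is a description only. This comparison and the untreated one use different libraries. TNFAIP3 was at 10.6 and 9.24 CPM in treated Empty and 95.3 and 133.1 CPM in treated NeuT (log2 difference 3.54, SE 0.16; edgeR adjusted p 4.0e-07). IRAK2 differed by 2.60 (SE 0.17), BIRC3 by 1.74 (SE 0.090), ICAM1 by 1.68 (SE 0.11), RELB by 1.35 (SE 0.15), NFKBIA by 1.02 (SE 0.062), NFKB2 by 0.97 (SE 0.076) and RELA by 0.40 (SE 0.061), all on the log2 scale with edgeR adjusted p-values up to 6.1e-05.

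The pair of genes whose call differed from the untreated comparison were NFKB1 and TRAF1. NFKB1 had 65.0 and 61.3 CPM in treated Empty and 61.3 and 71.3 CPM in treated NeuT, which overlap (log2 difference 0.072, SE 0.072; edgeR adjusted p 0.459). It was -0.0034 with total counts in place of TMM scaling and -0.039 without NeuT JG-98 replicate 2, and without NeuT JG-98 replicate 1 it was called as higher (0.19, edgeR adjusted p 0.0260). TRAF1 had 1.89 and 1.38 CPM in treated Empty and 1.998 and 4.09 CPM in treated NeuT (log2 difference 0.91, SE 0.33; edgeR adjusted p 0.0355). Without NeuT JG-98 replicate 2 the TRAF1 difference was 0.31 (edgeR adjusted p 0.525), and it was also not called without Empty JG-98 replicate 1 (0.0561), without Empty JG-98 replicate 2 (0.246) or by limma-voom (0.0501), and the lowest adjusted p of any alternative was 0.000565.

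**Figure D2:**
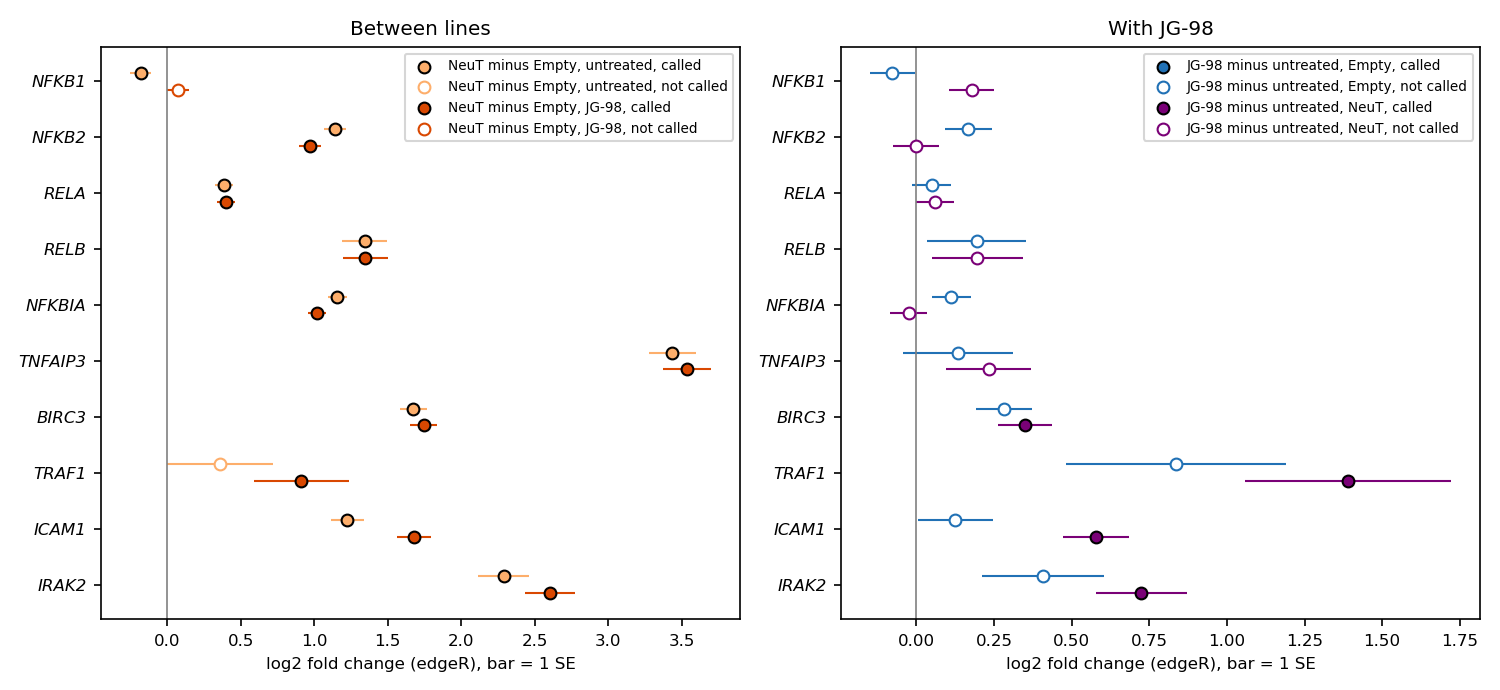
Log2 fold change of each gene, between lines (left) and with JG-98 (right), with bars of 1 SE; filled points were called by edgeR and open ones were not. Between lines 9 of 10 points were called in each condition; with JG-98 none was called in Empty and 4 were in NeuT, and the horizontal scales of the panels differ.

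The response to JG-98 was read within each line. In Empty cells 0 of the 10 genes were called by edgeR, where 0.339% of all tested genes were, 0.260% as higher and 0.0791% as lower. At an unadjusted p under 0.05 the number was 3 with edgeR, where 9.83% of all tested genes passed, and DESeq2 and limma-voom also called 0 after adjustment. A count of 0 with 2 libraries a group does not show that the genes did not change. Of the 10, 9 had a positive log2 fold change, with a median of 0.15 against -0.00334 over all tested genes. BIRC3 was at 103.5 and 102.7 CPM in treated Empty, above both untreated values (log2 fold change 0.28, SE 0.089; edgeR adjusted p 0.281). It passed without the filter on low counts (0.0022) and with only the 4 libraries compared (0.0153), and the highest adjusted p of any alternative was 0.873. NFKBIA, at 75.2 and 68.4 CPM, gave 0.11 (SE 0.062), and NFKB2, at 71.1 and 68.4 CPM, gave 0.17 (SE 0.077). RELA at 104.1 and 103.7 CPM (0.049, SE 0.061), RELB at 17.2 and 16.5 CPM (0.19, SE 0.16), ICAM1 at 10.2 and 9.77 CPM (0.13, SE 0.12), IRAK2 at 2.52 and 2.83 CPM (0.41, SE 0.20) and TRAF1 (0.84, SE 0.35) also stood above their untreated libraries without being called. TNFAIP3 (0.13, SE 0.18) overlapped, and NFKB1 was below (-0.077, SE 0.072). Libraries also did not overlap, in either direction, for 46 of the 91 other NF-kB pathway genes tested, where 3 were called.

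In NeuT cells edgeR called 4 of the 10 genes, all as higher with JG-98: ICAM1, IRAK2, TRAF1 and BIRC3. Over all tested genes 3.01% were called, 2.01% as higher and 1.01% as lower. ICAM1 reached 27.4 and 36.2 CPM (log2 fold change 0.58, SE 0.11; edgeR adjusted p 0.00594). IRAK2 reached 13.4 and 19.4 CPM (0.72, SE 0.15; edgeR adjusted p 0.0130), and TRAF1 1.998 and 4.09 CPM (1.39, SE 0.33; edgeR adjusted p 0.0341). BIRC3 reached 305.5 and 384.7 CPM (0.35, SE 0.086), passing narrowly at an edgeR adjusted p of 0.0496. BIRC3 was not called with RLE factors (0.0596), with at least 10 counts in every library (0.0527) or with a replicate block (0.0649), and TRAF1 was not called by limma-voom (0.0710). For these 4 genes both treated libraries lay above both untreated ones. Libraries also did not overlap, in either direction, for 50 of the 91 other NF-kB pathway genes tested, where 10 were called. The share of all tested genes without overlap is not given here. The authors' deposited table for NeuT gives adjusted p-values of 0.0102 for ICAM1, 0.0180 for IRAK2, 0.0395 for BIRC3 and 0.0592 for TRAF1, and the authors' deposited table for Empty has none of the 10 genes under 0.2459.

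Among the subunits and inhibitors in NeuT, edgeR called none, though TNFAIP3 passed without the filter on low counts (adjusted p 0.0370). NFKBIA stood at 145.3 and 145.4 CPM with the drug, between its untreated values (-0.025, SE 0.060; edgeR adjusted p 0.898). NFKB2 had 123.4 and 149.7 CPM, on either side of the untreated libraries (-0.0021, SE 0.075), and RELA had 128.6 and 145.3 CPM (0.061, SE 0.061). RELB had 35.6 and 50.0 CPM (0.20, SE 0.15), TNFAIP3 95.3 and 133.1 CPM (0.23, SE 0.14) and NFKB1 61.3 and 71.3 CPM (0.18, SE 0.072), and the lowest edgeR adjusted p of the 3 was 0.225. For RELB and TNFAIP3 the treated replicate 1 lay between the untreated libraries and replicate 2 above them. Both treated libraries of NFKB1 lay above both untreated ones, though it was not called.

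The treated NeuT libraries were not alike for these genes. All 10 genes had a higher CPM in replicate 2 than in replicate 1, with a median log2 gap of 0.36, where 50.8% of all tested genes did and the median was 1.02e-05. In treated Empty the split went the other way, with 1 of the 10 higher in replicate 2 and a median gap of -0.055, where 49.8% of all tested genes were higher. Relative to the untreated NeuT mean, the median of the 10 genes was 0.02 in replicate 1 and 0.44 in replicate 2. The treated NeuT pair also differed most over all genes, with a chi-square statistic of 22.1 per gene against 4.52 to 8.20 in the other groups. Without replicate 2 none of the 4 genes was called, with changes of 0.36 for ICAM1, 0.43 for IRAK2, 0.78 for TRAF1 and 0.17 for BIRC3 and edgeR adjusted p-values of 0.0577 to 0.320, where 1.96% of all tested genes were called. Without replicate 1, 7 were called, the added ones being NFKB1 (0.28), RELB (0.42) and TNFAIP3 (0.45), where 11.4% of all tested genes were called in that fit. Fitting only the 4 libraries compared also left 0 of the 10 called, where 1.11% of all tested genes were called. The 4 calls depended on either untreated NeuT library too. Without any 1 NeuT library the change ran from 0.36 to 0.76 for ICAM1 and from 0.43 to 0.96 for IRAK2. For TRAF1 it ran from 0.78 to 1.81 and for BIRC3 from 0.17 to 0.51. The cause of the gap between the treated libraries was not tested.

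**Figure D3:**
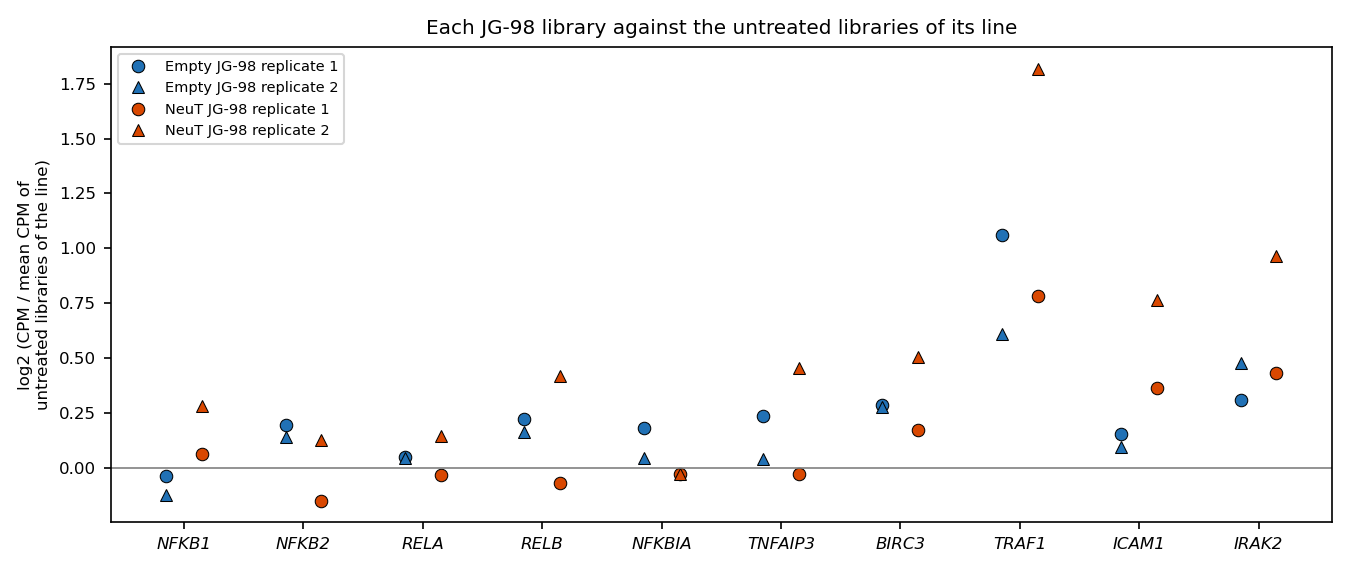
Log2 ratio of each treated library to the mean of the untreated libraries of its line (vertical axis), per gene; blue is Empty, orange NeuT, circles replicate 1 and triangles replicate 2. For ICAM1 the treated NeuT libraries stand at 0.36 and 0.77, and for every gene the NeuT triangle is above the NeuT circle, by least for NFKBIA.

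The difference between the responses of the lines was tested as an interaction of line and drug. EdgeR called 0 of the 10 genes, where 0.00565% of all tested genes were called, and the number at an unadjusted p under 0.05 was 2, where 7.79% of all tested genes passed. DESeq2 and limma-voom also called 0. ICAM1 had the smallest adjusted p, with an interaction of 0.45 (SE 0.16; edgeR adjusted p 0.544), followed by NFKB1 with 0.26 (SE 0.10; edgeR adjusted p 0.571). Without any 1 library the interaction ran from 0.23 to 0.63 for ICAM1 and from 0.13 to 0.35 for NFKB1. Both were highest without NeuT JG-98 replicate 1. A difference in response between the lines is thus not shown for any of the 10 genes, and the calls in NeuT alone do not show one.

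Further genes of the pathway were read from 6 lists holding 105 genes, of which 91 were tested, 13 were too low to be tested and 1 (SOD2) was not matched to a single identifier. Between the untreated lines 72 of the 91 were called, 58 higher and 14 lower in NeuT, where 42.0% of all tested genes were called, 21.2% as higher and 20.8% as lower. Under JG-98 the corresponding numbers were 69, 61 and 8, where the shares of all tested genes were 41.7%, 21.7% and 20.0%. Their median log2 difference was 0.55 without the drug and 0.50 with it. Of the 58, 7 had under 10 counts in both untreated Empty libraries and could hardly be called as lower. These counts and medians are therefore descriptions only. With at least 10 counts in every library 81 were tested, and 64 and 63 were called. Under that filter 47.8% and 47.5% of all tested genes were called.

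Among other known NF-kB targets 30 of 35 tested were called between the untreated lines, 29 as higher in NeuT, with a median of 1.68. Of the 29, 6 (IL1B, CSF3, CXCL10, IL6, TNFAIP6 and TNFRSF9) had under 10 counts in both untreated Empty libraries and passed the filter through other libraries, so that they could hardly be called as lower in NeuT, and the count and median are descriptions only. The 6 most different by the naming rule were cytokines and chemokines apart from PTX3, and no test of such a theme was run. IL1B, the gene of interleukin-1 beta, had 3 and 4 counts in the untreated Empty libraries and 35.5 and 33.1 CPM in untreated NeuT. CSF3, a granulocyte growth factor, had 0.106 and 0.140 CPM against 15.0 and 16.3 CPM, and IL1A 2.54 and 2.49 CPM against 89.9 and 81.7 CPM (log2 difference 5.09, SE 0.18). The neutrophil chemokines CXCL3 (3.28, SE 0.13) and CXCL8 (2.92, SE 0.16) and the pattern-recognition protein PTX3 (2.89, SE 0.18) followed, all with edgeR adjusted p-values up to 3.2e-06. Under JG-98 the list again had 30 called, all higher in NeuT, with a median of 1.74, where 41.7% of all tested genes were called, 21.7% as higher. Of these, IL1B, CXCL10, IL6, TNFAIP6 and TNFRSF9 had 2 to 8 counts per library in treated Empty, so this count and median are descriptions too. In both conditions 29 genes were called as higher, the 6 low-count genes among them. The share of all tested genes called as higher in both is not given here, so this count too is a description only. Under JG-98 the largest differences by the rule were those of IL1B, CSF3, IL1A, PTX3, CXCL8 and TNFAIP6. TNFAIP6, a hyaluronan-binding protein, had 8 and 6 counts in treated Empty and 127 and 164 in treated NeuT. Genes listed at 0 in all 8 libraries were VCAM1, CCL2, TNF, LTB, TAP1 and PSMB9, which allows up to 0.0511 to 0.0787 CPM per library. The last 4 lie in the histocompatibility region of chromosome 6. There 74.6% of protein-coding genes averaged no more than 3 counts, compared with 30.2% in the rest of the genome, and these zeros are not read as a lack of expression.

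Genes acting upstream or as regulators went in both directions between the lines. Their counts stand beside the 42.0% of all tested genes called, 21.2% as higher and 20.8% as lower, and no test compared the lists. Of 24 tested receptors and adaptors 17 were called, 12 higher and 5 lower in untreated NeuT, with a median of 0.28. The 12 include TLR2, a receptor of bacterial lipoproteins, which had 0 and 2 counts in untreated Empty and 26 and 7 in untreated NeuT and could hardly be called as lower. Of 11 kinases 7 were called, 4 higher and 3 lower, with values from -0.78 to 1.32 and a median of 0.15. Other negative regulators had 8 higher and 3 lower among 12 tested (median 0.35), and both SHARPIN and RBCK1 of the 3 genes of the linear ubiquitin ligase complex were higher. The other IkB family genes and REL gave 3 higher and 2 lower of 6.

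**Figure D4:**
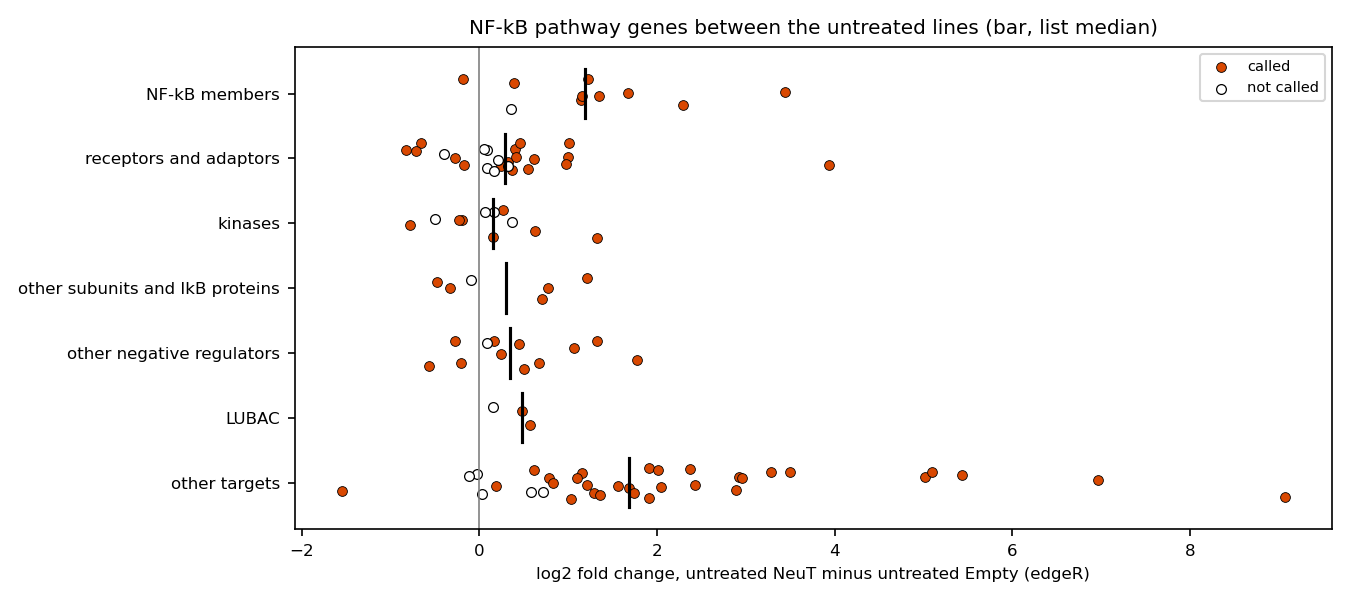
Log2 difference between untreated NeuT and untreated Empty (horizontal axis) for the tested genes of each list; filled points were called by edgeR, open ones were not, black bars are list medians, and LUBAC is the linear ubiquitin ligase complex. The medians are 1.19 for the 10 genes and 1.68 for the other targets, and 0.15 to 0.48 for the other 5 lists, and no test compared them.

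With JG-98, 3 of the 91 other pathway genes were called in Empty and 10 in NeuT, all as higher, against 0.339% and 3.01% of all tested genes. In Empty these were CXCL3 (log2 fold change 0.93, SE 0.15; edgeR adjusted p 0.0115), CXCL2 (0.65, SE 0.13; 0.0336) and RBCK1, a subunit of the linear ubiquitin ligase complex (0.34, SE 0.059; 0.0136). Removal of either untreated Empty library or of Empty JG-98 replicate 1 left none of the 3 called, and removal of Empty JG-98 replicate 2 left 1. In NeuT the rule named IL1A (1.12, SE 0.13), PTGS2, the prostaglandin-forming enzyme COX-2 (1.08, SE 0.18), CSF3 (1.03, SE 0.14), the stress gene GADD45B (0.73, SE 0.11), PTX3 (0.56, SE 0.14) and the chemokine CCL20 (0.53, SE 0.088), with edgeR adjusted p-values up to 0.0416. The other 4 called, named after their values were seen, were TNFRSF9, CYLD, TAB2 and RBCK1. PTX3 was not called without NeuT JG-98 replicate 2 (0.30, edgeR adjusted p 0.420) or without either untreated NeuT library, PTGS2 not without either untreated NeuT library and CCL20 not without NeuT untreated replicate 1. IL1A, CSF3 and GADD45B were called without any 1 of the 4 NeuT libraries. The count in NeuT moved with the library left out, and so did the share of all tested genes called. With only the 4 libraries compared it was 7, where 1.11% of all tested genes were called. Without any 1 NeuT library the change ran from 0.89 to 1.31 for IL1A, 0.69 to 1.38 for PTGS2 and 0.73 to 1.28 for CSF3. No pathway gene was called for the interaction by edgeR. At an unadjusted p under 0.05 there were 11, against the 7.79% of all tested genes. For the interaction limma-voom called 0 and DESeq2 1, and without NeuT JG-98 replicate 1 edgeR called 8. In that order 0.00565%, 0.107% and 4.16% of all tested genes were called.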

How the data were processed

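Poly(A)-selected RNA of 8 MCF-10A libraries was sequenced. Samples were grouped by their titles, and count columns were matched to titles by the initials of line and treatment and the replicate number. The table of raw counts per gene was deposited by the authors. Reads were trimmed with Trim Galore 0.5.0, aligned with HISAT2 2.1.0 to hg38 and counted with featureCounts 1.6.3, per the submitters' processing notes. The strand setting, the annotation release and the treatment of reads with several matches are not given in the sources used here. The authors also deposited 1 comparison per line with log2 fold changes and adjusted p-values, from limma per the submitters' processing notes.

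Counts were analysed with edgeR 4.0.16 in R 4.3.3: filterByExpr (minimum count 10, total 15), TMM scaling, and 1 robust quasi-likelihood model over all 8 libraries with a coefficient per group. Benjamini-Hochberg adjustment covered all tested genes of a contrast. The SE is the size of the log2 fold change divided by the square root of F. CPM and RPKM use TMM library sizes and the table's exon lengths. Other tools were DESeq2 1.42.0 and limma 3.58.1. Scripts were tested on simulated data. The number of per-sample columns left unmatched was 0. Symbols came from a name table holding 60261 of the 60617 identifiers.

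The members, lists, tests and naming rule were chosen with earlier results of these data known. All 10 members are named. For each comparison, up to 6 other pathway genes were named by size of change from those called that averaged 50 counts or more and had, for comparisons of 2 groups, no overlap of libraries. Alternatives were RLE and total-count scaling, no filter, at least 10 counts in every library, DESeq2, limma-voom, no robust estimation, a replicate block, a model of just the libraries compared, and leaving out each library. Replicates differed by more than sampling noise. Depth intervals cover counting error only, as no molecular identifiers are stated.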

Additional observations from a re-analysis of the deposited data

Results flagged for a closer look

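NFKB1 stood out because both treated libraries of Empty lay below both untreated ones (log2 ratios of -0.034 and -0.12 to the untreated mean), while both treated libraries of NeuT lay above theirs (0.065 and 0.28). The difference between the 2 changes, tested as the interaction of line and drug, was 0.255 on the log2 scale (SE 0.10) and was not called (edgeR adjusted p 0.571). Without any 1 library the interaction ran from 0.13 to 0.35, the highest being without NeuT JG-98 replicate 1. The result was the same in 15 of 16 alternatives.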

How the results depend on the processing

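Over the alternatives that kept both libraries of each group, 8 or 9 of the 10 members were called between lines, untreated and under JG-98. Other pathway genes numbered 64 to 76 and 63 to 71. Of all tested genes 23.4% to 51.5% and 23.3% to 47.5% were called in those fits. These counts hide changes of single genes: the untreated NFKB1 call held in 4 of 13 alternatives and the TRAF1 call under JG-98 in 9 of 13, where its log2 difference ran from 0.31 to 1.35. The counts of JG-98 changes moved more. In Empty, 1 member was called with no filter and 1 with only the libraries compared. Pathway genes there numbered 9 with no filter, 6 with DESeq2, 1 with limma-voom and 5 with only the libraries compared. Of all tested genes 0.882%, 0.825%, 0.249% and 1.22% were called in those fits. In NeuT, 0 members were called with only the libraries compared, where fewer samples enter, and 0 to 7 without 1 library. Pathway genes numbered 17 with no filter and 4 to 28 without 1 library. The share of all tested genes called was 3.13% with no filter and moved from 0.706% to 11.4% without 1 library. Both the 28 and the 11.4% came from the fit without NeuT JG-98 replicate 1. For the interaction, members ran from 0 to 2 and pathway genes from 0 to 8 without 1 library. Pathway genes for the interaction numbered 3 with no filter and 1 with DESeq2. There the share of all tested genes called was 0.00536% to 4.16% without 1 library, 0.432% with no filter and 0.107% with DESeq2. The cause of these changes was not tested. A library left alone in its group is assumed to vary like the other groups.

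Of the gene values, 25 changed direction, and in each of those the gene was called under neither setting. The NFKB1 line difference under JG-98 was -0.0034 with total counts, and ran from -0.039 to 0.19 without 1 library. With JG-98 in NeuT, NFKB2 was 0.0022 with only the libraries compared and ran from -0.16 to 0.13 without 1 library, RELA from -0.038 to 0.14, RELB from -0.077 to 0.42, NFKBIA from -0.074 to 0.015 and TNFAIP3 from -0.036 to 0.45. The RELB interaction was -0.0026 with RLE factors, -0.0051 with total counts, -0.0015 with at least 10 counts in every library, -0.0035 with DESeq2 and -0.0165 with limma-voom, and ran from -0.28 to 0.22 without 1 library. Without 1 library the interaction ran from -0.091 to 0.091 for RELA, -0.17 to 0.32 for TNFAIP3, -0.12 to 0.22 for BIRC3 and -0.066 to 0.97 for TRAF1.

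Replicate deviations of the groups correlated with r from -0.102 to 0.246, so the shared numbers were not taken as pairs. With the replicate number as a block, 9, 9, 0, 3 and 0 members were called, and 71, 69, 4, 12 and 0 other pathway genes. The order is the lines untreated, the lines under JG-98, JG-98 in Empty, JG-98 in NeuT and the interaction. In that order 42.4%, 42.1%, 0.373%, 3.35% and 0.00565% of all tested genes were called. The lost member call was BIRC3 in NeuT (log2 fold change 0.35, edgeR adjusted p 0.0649). Depth limits TRAF1 most, with 38 to 221 counts per library.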
